A study of Mus musculus with 12 samples.

Results

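The promoters of 40 mouse genes that act at or near the cell surface in Wnt signaling were examined for peaks of histone H3 lysine 9 methylation in fat. The genes were taken by symbol from an annotation of the mm9 genome that holds 22380 protein-coding genes, and all 40 were found there. They comprised 19 Wnt ligands, 12 receptors (the frizzled genes Fzd1 to Fzd10 and the co-receptors Lrp5 and Lrp6), 8 secreted antagonists (Dkk1, Dkk2, Dkk3, Sfrp1, Sfrp2, Sfrp4, Sfrp5 and Wif1) and Axin2, a target gene whose product feeds back on the pathway. A member was counted in a library when at least 1 peak with a score of 50 or more touched the 3 kb on either side of any of its annotated transcription start sites.

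H3K9me2 and H3K9me3 were profiled by ChIP-seq in brown adipose tissue (BAT) and white adipose tissue (WAT) of wild-type C57BL/6J mice. From 6 weeks of age the animals received either a standard chow (SCD) or food high in fat (HFD), and the tissues were taken after 12 weeks of feeding. The 8 groups of every diet, tissue and mark were each represented by 1 library, and the number of animals behind a library was not given in the sources used here. Tissue pieces were fixed in 1% formaldehyde for 8 min in every group.

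Wnt proteins are secreted lipid-modified ligands that bind a frizzled receptor, and the canonical branch also engages Lrp5 or Lrp6 to stabilise beta-catenin in the receiving cell. Secreted frizzled-related proteins and Wif1 bind the ligands themselves, whereas Dickkopf proteins such as Dkk1 act at the co-receptors. In fat, Wnt10b is known for holding preadipocytes back from becoming adipocytes, and Sfrp5 is known as a factor released by adipocytes that counters Wnt5a. Methylation of H3K9 is a feature of repressed chromatin, with H3K9me3 being the mark of constitutive heterochromatin.

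The score of a peak was read as 10 times the negative log10 of its p-value, since the lowest score was 50 or 50.01 in 6 lists and 30 in both lists of SCD WAT. Only peaks of 50 or more were counted, which left between 21746 and 52758 peaks in 7 lists and 8350 in SCD WAT H3K9me3. The lists hold no read depth, so a promoter without a peak was one where none was detected at an unknown depth, and scores were not read as amounts of methylation. With 1 library per group there was no replicate check, no difference below was tested, and intervals are exact (Clopper-Pearson) 95% binomial intervals that cover counting error only. In the methods, the antibody listed for H3K9me2 is one to tri-methylated K9 and the one listed for H3K9me3 is to di-methylated K9, and the mark names here follow the library labels. No RNA was measured, and the labelled tissues could not be checked through expression. Of 5 brown adipocyte marker genes 2 to 5 had a promoter peak in each library, of 5 white adipocyte markers 0 to 2, of the 3 macrophage markers found 0 or 1, and of 3 endothelial markers 0 or 1. These were bulk tissues, so a peak present in fewer cells and a weaker peak in every cell cannot be told apart.

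Promoters differ in how many CG dinucleotides they hold. To show this, the 250 bases upstream of the outermost start of 6 members are given, read from mm9 in the direction of the gene, with each CG in capitals. Sfrp1 had a peak in all 8 lists, and Lrp6 only in the 4 lists of BAT. Axin2 is the target gene, and Wnt10b is the ligand best known in fat. Dkk2 and Wnt16 had a peak of 50 or more in HFD and none in SCD in 3 of the 4 pairs of diets.
Sfrp1 (chr8:24521724-24521973, plus strand): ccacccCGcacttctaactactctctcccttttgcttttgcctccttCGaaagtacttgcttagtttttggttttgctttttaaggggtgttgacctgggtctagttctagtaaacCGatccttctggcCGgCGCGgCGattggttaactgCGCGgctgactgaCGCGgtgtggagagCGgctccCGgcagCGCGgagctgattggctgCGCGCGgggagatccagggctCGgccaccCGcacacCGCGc
Lrp6 (chr6:134516984-134517233, minus strand): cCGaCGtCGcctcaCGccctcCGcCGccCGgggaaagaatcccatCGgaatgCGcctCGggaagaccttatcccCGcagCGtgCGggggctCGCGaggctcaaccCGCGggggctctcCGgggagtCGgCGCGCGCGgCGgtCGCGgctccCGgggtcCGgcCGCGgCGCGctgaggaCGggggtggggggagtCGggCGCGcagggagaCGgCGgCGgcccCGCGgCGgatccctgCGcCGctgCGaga
Axin2 (chr11:108781413-108781662, plus strand): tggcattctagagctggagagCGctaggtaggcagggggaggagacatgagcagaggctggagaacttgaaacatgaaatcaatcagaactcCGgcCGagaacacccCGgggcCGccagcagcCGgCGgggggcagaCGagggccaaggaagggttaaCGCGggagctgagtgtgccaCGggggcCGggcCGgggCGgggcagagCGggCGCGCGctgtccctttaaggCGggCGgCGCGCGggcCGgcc
Wnt10b (chr15:98608582-98608831, minus strand): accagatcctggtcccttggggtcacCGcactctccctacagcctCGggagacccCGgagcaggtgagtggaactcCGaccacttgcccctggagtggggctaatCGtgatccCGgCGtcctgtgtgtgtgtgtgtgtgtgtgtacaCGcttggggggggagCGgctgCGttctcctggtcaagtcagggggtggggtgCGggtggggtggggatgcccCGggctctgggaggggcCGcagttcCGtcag
Dkk2 (chr3:131748006-131748255, plus strand): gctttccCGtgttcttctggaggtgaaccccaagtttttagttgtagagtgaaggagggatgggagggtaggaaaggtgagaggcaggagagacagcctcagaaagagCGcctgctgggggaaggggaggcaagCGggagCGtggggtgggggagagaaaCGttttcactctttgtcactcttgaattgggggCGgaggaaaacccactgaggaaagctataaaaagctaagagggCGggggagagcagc
Wnt16 (chr6:22237977-22238226, plus strand): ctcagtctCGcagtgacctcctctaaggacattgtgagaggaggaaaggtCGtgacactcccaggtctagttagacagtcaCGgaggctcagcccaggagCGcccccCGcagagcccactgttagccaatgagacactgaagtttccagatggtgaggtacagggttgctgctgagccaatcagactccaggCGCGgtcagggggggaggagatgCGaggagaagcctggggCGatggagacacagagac

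Lrp6 held 45 CG in this stretch, a number reached by 0.545% of all promoters of the same length. Axin2 held 24 (reached by 13.5%), Sfrp1 22 (17.0%) and Wnt10b 14 (35.5%). Wnt16 held 9 (49.6%) and Dkk2 7 (55.8%), close to the median of 8 over all promoters, of which 92.5% held at least 1 CG.

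Each library except SCD WAT H3K9me3 had a promoter peak at most of the Wnt genes. In BAT, H3K9me2 peaks were found at 31 of the 40 members in SCD (77.5%, interval 61.5 to 89.2%), beside 43.3% of all protein-coding genes. The HFD list had them at 34 members (85.0%, interval 70.2 to 94.3%), beside 45.6% of all genes. For H3K9me3 in BAT the counts were 35 members in SCD, beside 52.3% of all genes, and 37 in HFD, beside 58.9%. The members were thus covered more often than genes at large in each BAT library.

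In WAT, H3K9me2 peaks were found at 30 members in SCD, beside 42.3% of all genes, and at 31 in HFD, beside 39.3%. H3K9me3 peaks were found at 26 members in HFD (65.0%, interval 48.3 to 79.4%), beside 35.9% of all genes. In SCD the same mark gave 6 members (15.0%, interval 5.71 to 29.8%), beside 6.96% of all genes. That list was the shortest, and its deposited form went down to a score of 30. Counting its peaks of 30 and more gave 19 members.

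**Figure D1:**
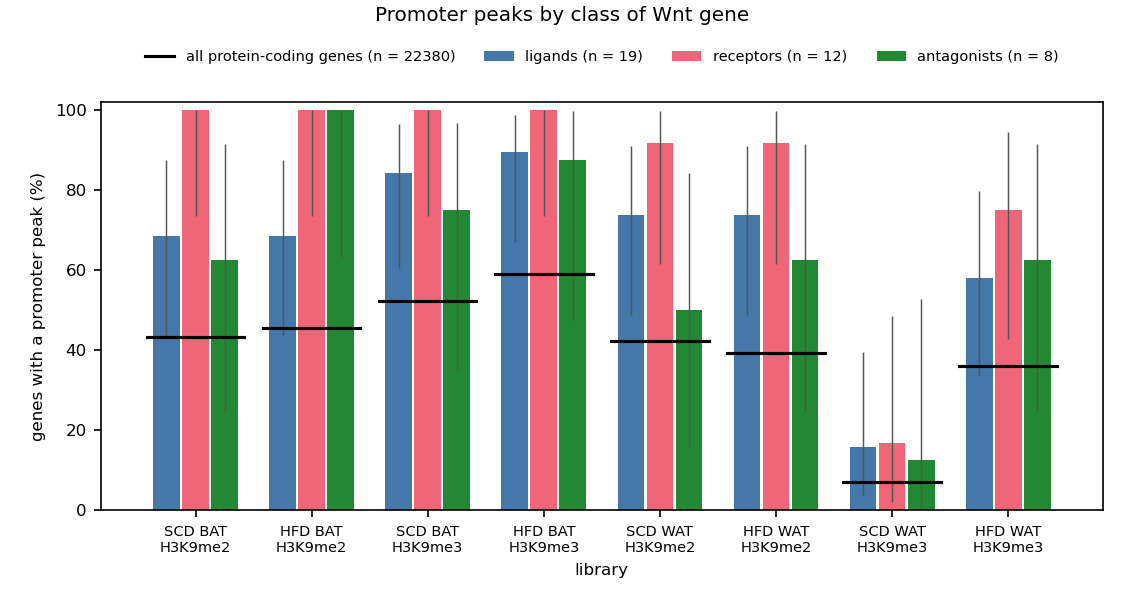
Share of ligands, receptors and antagonists with a promoter peak in each of the 8 libraries, in percent. Bars are shares of the 19, 12 and 8 genes, thin lines are exact 95% binomial intervals for counting error, and black lines are the shares of all 22380 protein-coding genes. Receptors stand at 100% in the 4 BAT libraries, and every class drops below 20% in SCD WAT H3K9me3.

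Across the 8 lists, 4 members (10.0%) had a peak in every list, compared with 3.72% of all genes. These were the ligand Wnt5a, the receptors Fzd2 and Fzd8 and the antagonist Sfrp1. A further 16 members had a peak in 7 lists, compared with 14.3% of all genes. With SCD WAT H3K9me3 set aside, 19 members had a peak in all of the other 7 lists, which 17.0% of all genes had. At the other end, Wnt8a, a ligand of early embryonic patterning, had no promoter peak in any list, as did 31.8% of all genes. Its gene body still held a peak outside the promoter window in 5 lists.

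The 19 ligands ranged from Wnt8a, with no peak, to Wnt5a, with a peak in every list. They had peaks at 13 promoters in both BAT H3K9me2 lists, at 16 (SCD) and 17 (HFD) for BAT H3K9me3, at 14 in both WAT H3K9me2 lists, and at 3 (SCD) and 11 (HFD) for WAT H3K9me3. Wnt10b, the anti-adipogenic ligand, scored 72.68 in SCD BAT H3K9me2 and had no peak in HFD. For H3K9me3 in BAT it scored 254.61 in SCD and 193.22 in HFD. In WAT its H3K9me2 peaks scored 50.31 in SCD and 54.88 in HFD, just above the lowest score counted, and its H3K9me3 peak scored 166.19 in HFD with none in SCD. Wnt10b was thus marked in both tissues, and each of its missing values fell in a list where its partner diet had a peak. The peaks lay inside the gene in 4 of its 6 lists, over introns for 49.6 to 63.6% of their length, and reached past the start in SCD BAT H3K9me2 and HFD WAT H3K9me3.

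Wnt5a, a ligand mostly linked to beta-catenin-independent signaling, had H3K9me2 scores of 64.6 in SCD and 176.1 in HFD in BAT. The corresponding scores in WAT were 181.03 and 177.07. For H3K9me3 it scored 69.36 in SCD and 341.81 in HFD in BAT, and 56.69 and 240.76 in WAT. The peak of Wnt5a in SCD WAT H3K9me3 lay entirely upstream of the gene, whereas the other 7 lay over untranslated or noncoding exon for 48.0 to 89.9% of their length. It held 0.77 CG per 100 bp, against 5.30 in the 1 kb on its right.

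Wnt8b, a ligand of the developing forebrain, had a single promoter peak, scored 103.06 in SCD WAT H3K9me3. It lay wholly upstream of the gene at chr19:44565632-44566688 and held 0.38 CG per 100 bp, the lowest of any member's highest peak. The central 200 bases are shown because they hold no CG and repeat themselves.
Wnt8b (chr19:44566061-44566260, plus strand): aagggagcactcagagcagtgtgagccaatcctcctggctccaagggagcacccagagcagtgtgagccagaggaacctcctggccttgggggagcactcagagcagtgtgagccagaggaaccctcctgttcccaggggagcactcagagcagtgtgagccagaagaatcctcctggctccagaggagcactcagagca
The 20-base word actcagagcagtgtgagcca occurred 11 times in this peak of 1057 bp. Of the 229 highest peaks of the other members, 13 held any 20-base word more than once, the highest number being 23 copies in a run of gt. Reads that mapped to multiple sites had been removed by the authors before peak calling.

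The 12 receptors each had a peak in at least 4 lists. All 12 had a peak in each of the 4 BAT lists, 11 in both WAT H3K9me2 lists, and 2 and 9 in the SCD and HFD lists of WAT H3K9me3. Fzd8, a Wnt receptor of the frizzled family, had H3K9me3 scores of 628.28 in SCD and 1171.45 in HFD in BAT. In WAT the same mark gave Fzd8 178.88 and 324.26, and H3K9me2 gave 474.71 and 129.31. Fzd1 scored 809.32 in SCD and 1273.36 in HFD for H3K9me3 in BAT, the latter above 99.5% of that list, yet had no peak in SCD WAT H3K9me3. Fzd2 scored 289.18 and 1065.08 in BAT H3K9me3, and 56.41 and 183.59 in WAT H3K9me3. Fzd2 and Fzd8 were the receptors with a peak in all 8 lists.

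The co-receptor Lrp6 had peaks in BAT alone. It scored 73.89 in SCD and 83.19 in HFD for H3K9me2 in BAT, and 427.76 and 377.15 for H3K9me3. In WAT it had no peak in any of the 4 lists, although a peak of 39.1 stood below the lowest score in SCD H3K9me2. Lrp5 scored 164.61 and 91.42 for H3K9me2 and 548.69 and 378.15 for H3K9me3 in BAT. In WAT it had H3K9me2 scores of 145.28 and 103.38 and no H3K9me3 peak in either diet, the same pattern of lists as Fzd3. Wnt9a, a ligand with a CpG-rich promoter, was like Lrp6 in having peaks in the 4 BAT lists alone, with a score of 39.17 in SCD WAT H3K9me2.

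Receptors differed in how far the peak ran into the gene. The coding sequence of Fzd1, Fzd2, Fzd5, Fzd7, Fzd8, Fzd9 and Fzd10 lies in 1 exon, whereas that of the other 5 receptors is split over 2 to 23 exons. In SCD BAT H3K9me2 the highest peaks of the 7 genes with 1 coding exon were 2149 to 3325 bp wide, with a median of 2591 bp. Those of the other 5 were 988 to 2001 bp wide, with a median of 1181 bp. The groups also did not overlap in HFD BAT for either mark, in SCD WAT H3K9me2 or in HFD WAT H3K9me3, where the medians were 2233 and 1094 bp. They overlapped in SCD BAT H3K9me3 and in HFD WAT H3K9me2, where the medians were 1040 and 734 bp. The wide peaks lay mainly on coding sequence, for a median of 68.9% of their length in SCD BAT H3K9me2, against 4.77% in the other receptors. Their centres lay a median of 976 bp downstream of the start, against 48 bp.

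Such width was not shared by genes with 1 coding exon in general. Over all protein-coding genes with a peak in SCD BAT H3K9me2, the median width of the highest peak was 1207 bp for 1098 genes with 1 coding exon and 1162 bp for 8585 genes with several. In HFD WAT H3K9me3 the corresponding medians were 1031 and 922 bp. The central 200 bases of the Fzd1 peak of HFD BAT H3K9me3 are shown because all of them are coding and they hold 20 CG, in capitals.
Fzd1 (chr5:4756891-4757090, minus strand): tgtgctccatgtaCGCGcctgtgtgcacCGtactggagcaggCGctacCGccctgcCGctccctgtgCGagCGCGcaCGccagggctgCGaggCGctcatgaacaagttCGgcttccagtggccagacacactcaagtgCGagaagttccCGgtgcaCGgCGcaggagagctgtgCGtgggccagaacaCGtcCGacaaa

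**Figure D2:**
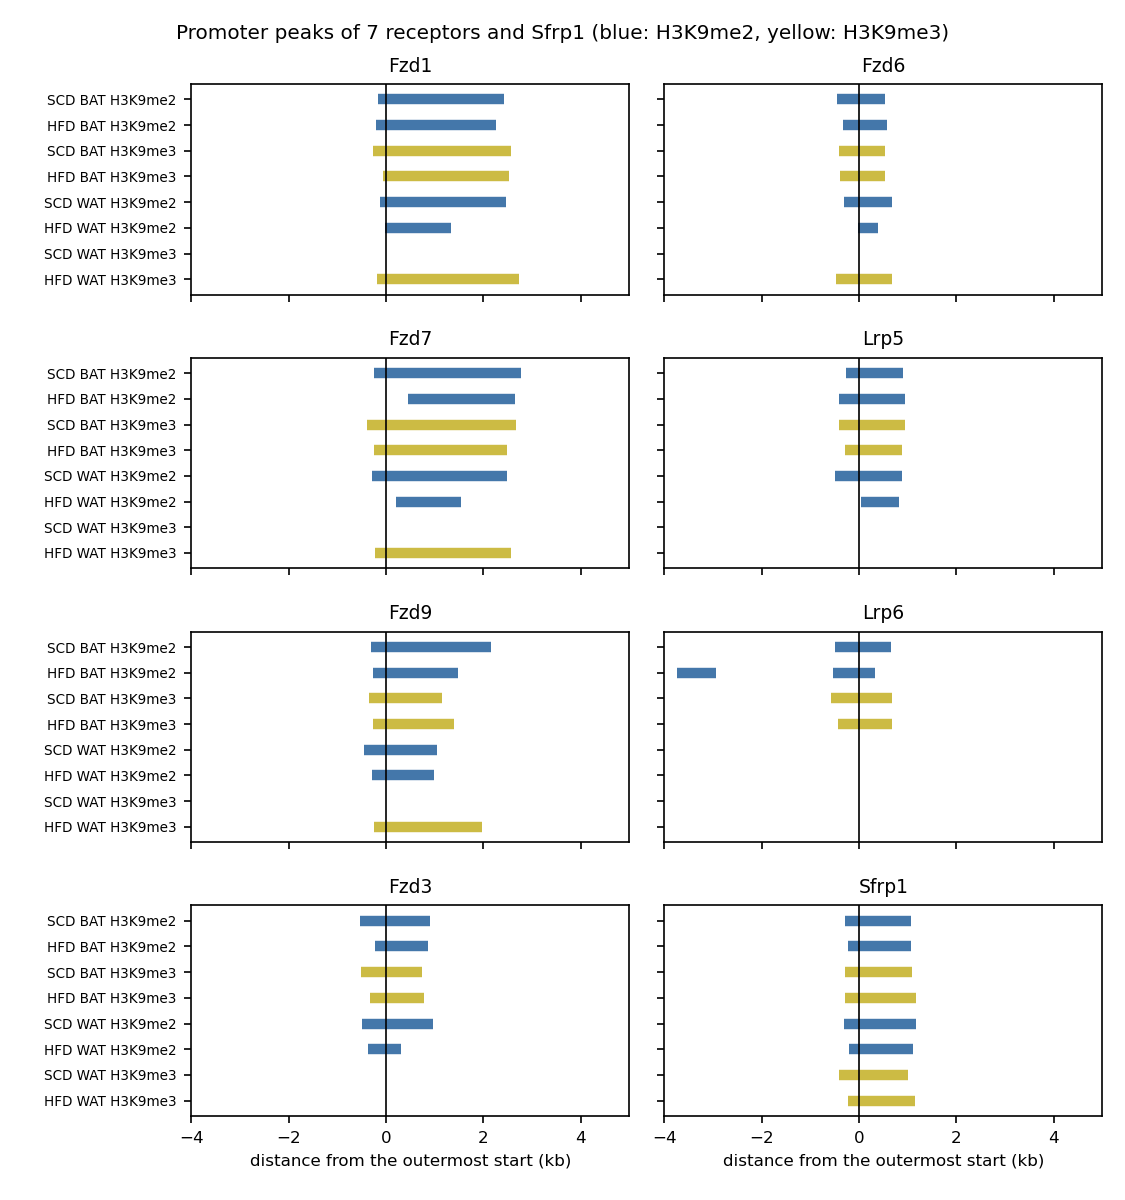
Promoter peaks of 7 receptors and of the antagonist Sfrp1 by distance from the outermost start, in kb, with the gene running to the right. Each row is a library and each bar is a peak with a score of 50 or more. Bars of Fzd1 and Fzd7 run over 2 kb into the gene in most rows, those of Fzd3, Fzd6, Lrp5 and Lrp6 end within 1 kb, and those of Sfrp1 keep nearly the same edges in all 8 rows.

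Among the antagonists, Sfrp1 had a peak in all 8 lists, Dkk2 and Wif1 in 5, and Dkk1 and Dkk3 in 2. Sfrp1, which binds Wnt ligands, scored 266.39 in SCD and 120.85 in HFD for H3K9me2 in BAT, and 523.52 and 661.51 for H3K9me3. In WAT it scored 747.41 and 233.37 for H3K9me2, and 141.26 and 282.49 for H3K9me3. Its peak kept the same place: the left edges of the 8 peaks lay within 201 bp of each other and the right edges within 165 bp. For Wnt5a, the left edges were spread over 2172 bp. Sfrp5, the adipocyte-derived antagonist, scored 116.81 and 161.55 in BAT H3K9me2, 301.88 and 861.77 in BAT H3K9me3, and 160.58 and 156.9 in WAT H3K9me2. Its only list without a peak was SCD WAT H3K9me3, where HFD had a peak of 133.62.

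Dkk1, an inhibitor of the Lrp5 and Lrp6 co-receptors, had peaks in 2 lists, HFD BAT H3K9me2 (74.66) and SCD BAT H3K9me3 (50.87). Dkk3, a divergent member of the family, had peaks in HFD BAT for both marks, at 52.49 and 67.44. Both genes were without a peak in the 4 WAT lists. Dkk2 had no peak in SCD BAT for either mark, and scored 74.69 and 86.47 in the HFD lists. In WAT it had H3K9me2 peaks of 116.34 in SCD and 54.81 in HFD, and an H3K9me3 peak of 190.86 in HFD. The SCD WAT H3K9me2 peak of Dkk2 that scored highest lay in an intron, 2038 bp from the start.

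Axin2, the target and feedback inhibitor, had a promoter peak in all lists but SCD WAT H3K9me3. It scored 101.48 in SCD and 79.54 in HFD for H3K9me2 in BAT, and 420.64 and 780.37 for H3K9me3. In WAT it scored 239.94 and 345.09 for H3K9me2, and 109.66 for H3K9me3 in HFD. Its promoter peaks in HFD BAT H3K9me2 covered none of its 7 annotated starts, whereas those of the other 6 lists covered 3 or 4. Axin2 was thus marked across both tissues and diets.

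**Figure D3:**
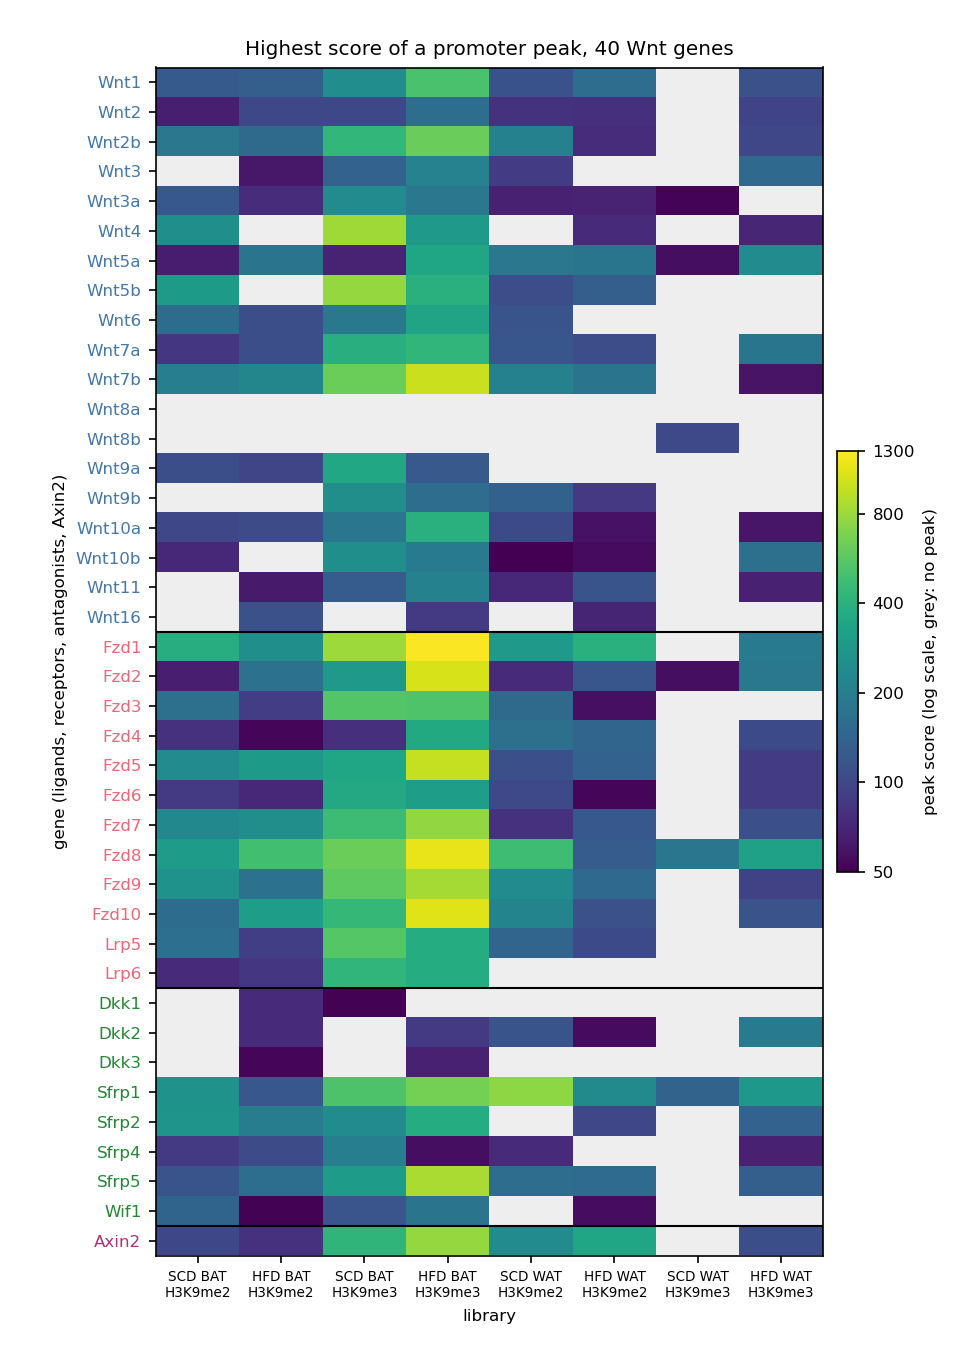
Highest score of a promoter peak for each of the 40 Wnt genes (rows, grouped as ligands, receptors, antagonists and Axin2) in each of the 8 libraries (columns), coloured on a log scale. Grey cells had no peak with a score of 50 or more. The receptor rows are filled in BAT, the column of SCD WAT H3K9me3 has 6 filled cells, and scores are not scaled between libraries.

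The diets were compared to ask which Wnt promoters had a peak in SCD or HFD alone. In BAT H3K9me2, 28 members had a peak in both diets, and all 28 pairs overlapped. A peak in SCD only was found at 3 members, the ligands Wnt5b (295.11), Wnt4 (253.63) and Wnt10b (72.68), beside 11.5% of all genes. A peak in HFD only was found at 6 members, beside 13.8% of all genes. These were Wnt16 (112.73), Dkk2 (74.69), Dkk1 (74.66), Wnt11 (63.43), Wnt3 (61.7) and Dkk3 (52.49). Both counts are near the shares of all genes, and 0 of the 12 receptors had a peak in 1 diet only. With a score of 80 or more, all HFD-only calls named here but that of Wnt16 were lost, the 3 Dickkopf genes included, and the counts turned to 6 SCD-only and 5 HFD-only. When each BAT H3K9me2 list was cut to its 24887 strongest peaks, the counts turned to 5 SCD-only and 3 HFD-only members, without Dkk3, Wnt11 and Wnt3.

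In BAT H3K9me3, 34 members had a peak in both diets. Only Dkk1 (50.87) had a peak in SCD alone, beside 2.16% of all genes. Wnt16 (87.47), Dkk2 (86.47) and Dkk3 (67.44) had a peak in HFD alone, beside 8.83% of all genes. The HFD list was the longer, with 52758 peaks against 26835, and with equal numbers of peaks 0 members were HFD-only and 2 SCD-only. Dkk1 was thus called in opposite diets for the marks in BAT, the H3K9me3 score being next to the lowest counted.

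In WAT H3K9me2, 27 members had a peak in both diets. SCD-only peaks were found at Wnt6 (116.32), Wnt3 (88.36) and Sfrp4 (74.5), beside 10.2% of all genes. HFD-only peaks were found at Sfrp2 (99.9), Wnt4 (73.97), Wnt16 (69.76) and Wif1 (55.36), beside 7.16% of all genes. Of the HFD-only members, Sfrp2 and Wnt4 had SCD peaks of 48.91 and 45.18 below the lowest score counted, whereas Wnt16 and Wif1 had none of 30 or more. The shares were close to those of all genes in both directions. With a score of 80 the direction with more members turned to SCD (8 SCD-only and 3 HFD-only). With no lowest score there were 5 SCD-only and 2 HFD-only members, but only the SCD list then gained peaks, down to 30. In that setting SCD-only members could only rise and HFD-only members only fall.

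In WAT H3K9me3, 22 members had a peak in HFD only, beside 30.6% of all genes. They were 10 ligands, 7 receptors, 4 antagonists and Axin2, led by Dkk2 (190.86), Fzd1 (187.97), Wnt7a (178.21) and Wnt10b (166.19). A peak in SCD only was found at Wnt8b (103.06) and Wnt3a (51.61), beside 1.68% of all genes, and 4 members had a peak in both diets. The SCD list had 8350 peaks and the HFD list 29190, and the part of this difference in the result was not tested. With the 8350 strongest peaks of each list, 12 members were HFD-only. With SCD peaks of 30 and more counted, 11 were HFD-only, since 11 of the 22 had an SCD peak between 30 and 50. The other 11, among them Fzd1, Wnt10b and Sfrp5, had no SCD peak of 30 or more in the promoter window.

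Over the 4 pairs of diets, Wnt16, a ligand studied mainly in bone, and Dkk2 were HFD-only in 3, and Dkk3, Wnt11 and Sfrp2 in 2. The share of all genes called this way in several pairs was not counted. The HFD lists were the longer ones in BAT and in WAT H3K9me3. With equal numbers of peaks, the HFD-only calls of Wnt16, Dkk2 and Dkk3 in BAT H3K9me3 were lost. With a score of 80 or more, those of Dkk2 and Dkk3 in BAT H3K9me2 and of Wnt16 in WAT H3K9me2 were lost. The Dkk2 call in WAT H3K9me3 was lost with no lowest score. Among the calls of Wnt16 and Dkk2, only that of Wnt16 in BAT H3K9me2 was kept in every setting. In SCD WAT H3K9me3, peaks below 50 stood at Dkk2 (31.38), Wnt11 (42.32) and Sfrp2 (32.71). Wnt16 also had one there (40.83), without a counted peak in HFD. Wnt3 and Wnt4 changed sides: Wnt3 was HFD-only in BAT H3K9me2 and WAT H3K9me3 and SCD-only in WAT H3K9me2, and Wnt4 was SCD-only in BAT H3K9me2 and HFD-only in both marks of WAT. Sfrp4 was SCD-only in WAT H3K9me2 and HFD-only in WAT H3K9me3. Wnt10b was SCD-only in BAT H3K9me2 and HFD-only in WAT H3K9me3. No member was SCD-only in more than 1 pair.

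The share of the promoter window lying under peaks gave a finer view than presence alone. In BAT H3K9me2 it was smaller in HFD for 11 of the 12 receptors, with a mean of 36.1% in SCD and 30.5% in HFD. The median change of the receptors was -3.24 percentage points. The largest falls were those of Fzd4, from 33.3 to 13.1%, and Fzd7, from 49.8 to 36.4%. Only Lrp5 was wider, at 19.7 and 22.5%. Of the antagonists, 7 of 8 were wider in HFD, with means of 11.7 and 22.0%. Dkk1, Dkk2 and Dkk3 went from 0 to 17.9, 35.8 and 15.4%, whereas Sfrp4 and Wif1 moved by 0.198 and 0.0917 percentage points. Of all genes with a peak in either diet, 53.2% were narrower in HFD.

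In WAT H3K9me2 all 11 receptors with a peak were narrower in HFD, the mean over the 12 going from 31.8 to 18.5%. Fzd2 went from 35.9 to 11.9% and Fzd7 from 45.8 to 22.4%. Of all genes with a peak in either diet, 76.5% were narrower in HFD, and the mean width of all peaks was 1003 bp in SCD and 732 bp in HFD. In BAT H3K9me3 the receptors had means of 33.9 and 32.9% and 7 of 12 were narrower, beside 60.7% of all genes with a peak. The antagonists had means of 12.7% in both diets for BAT H3K9me3, and of 9.24 and 9.27% for WAT H3K9me2, where 3 were wider and 3 narrower. In WAT H3K9me3 the receptor mean went from 5.40% in SCD to 29.4% in HFD, and the mean over all genes from 0.897 to 4.80%. Fzd8 was nearly equal at 55.1 and 54.1%. Of the other 3 members with a peak in both diets of that mark, Sfrp1 had 23.8 and 22.9%, Wnt5a 5.10 and 21.6%, and Fzd2 9.67 and 34.6%.

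**Figure D4:**
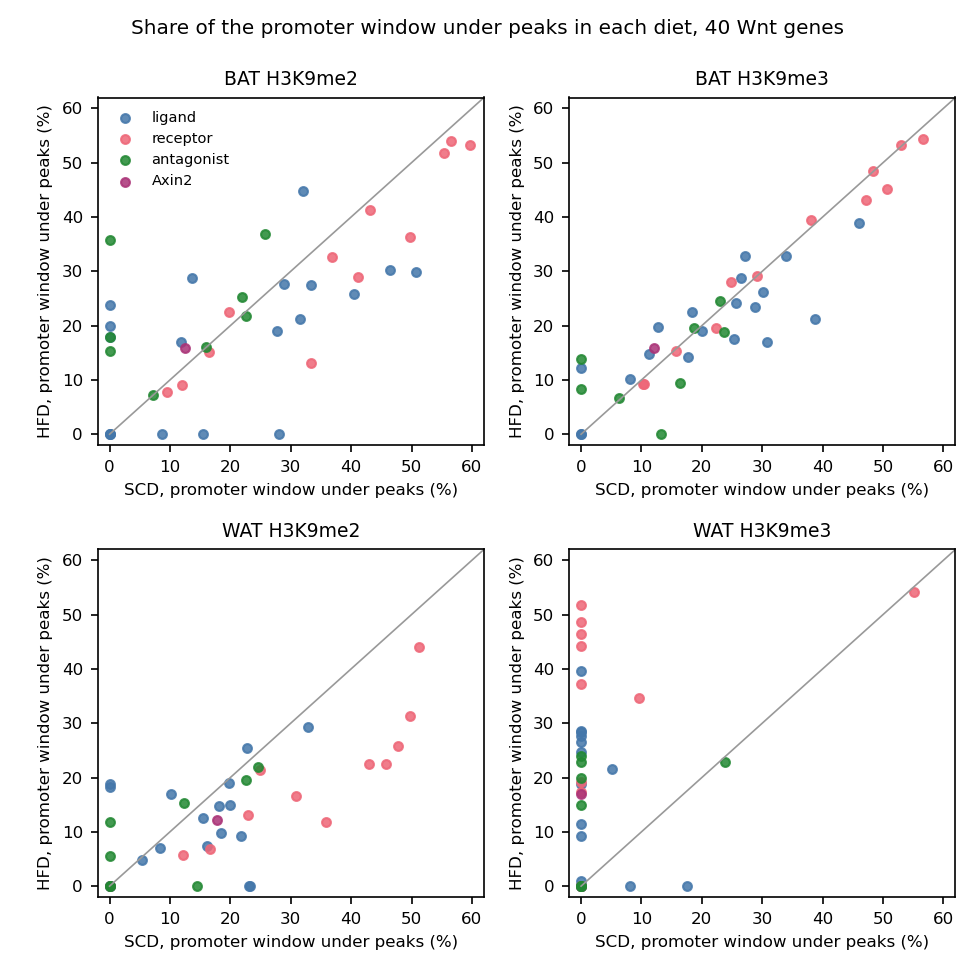
Share of the promoter window under peaks, in percent, in SCD (x axis) and HFD (y axis) for the 40 Wnt genes in each tissue and mark. Points are genes coloured by class, and the grey line marks equal shares. Receptor points lie below the line in WAT H3K9me2, and most points of WAT H3K9me3 stand on the y axis at 0% in SCD.

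The tissues were compared to ask which Wnt promoters were marked in BAT or WAT alone. For H3K9me2 in SCD, 5 members had a peak in BAT only, beside 9.58% of all genes. They were Sfrp2 (270.7), Wnt4 (253.63), Wif1 (142.59), Wnt9a (109.06) and Lrp6 (73.89). In WAT only there were 4 members, beside 8.66% of all genes, namely Wnt9b (137.21), Dkk2 (116.34), Wnt3 (88.36) and Wnt11 (72.91). With SCD WAT peaks down to 30 counted, 1 member was BAT-only and 4 were WAT-only. The BAT list still began at 50, so BAT-only members could only fall, and this turn of direction rests on unlike lowest scores.

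For H3K9me2 in HFD, 7 members had a peak in BAT only, beside 16.7% of all genes, and 4 in WAT only, beside 10.5%. The BAT-only members included Dkk1, Dkk3, Lrp6 and Sfrp4, and the WAT-only members were the ligands Wnt5b (134.07), Wnt9b (86.12), Wnt4 (73.97) and Wnt10b (54.88). With the 21976 strongest peaks of each list the direction turned, to 4 BAT-only and 10 WAT-only members. Lrp6 and Wnt9a were BAT-only in both diets, and Wnt9b was WAT-only in both.

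For H3K9me3 the difference lay on the BAT side. In SCD, 30 members had a peak in BAT only, beside 46.6% of all genes, and Wnt8b alone had a peak in WAT only, beside 1.32%. The BAT-only members were led by Wnt4 (821.08), Fzd1 (809.32) and Wnt5b (772.3). In HFD, 11 members were BAT-only, beside 25.9% of all genes, and 0 WAT-only, beside 2.80%. The 11 included Fzd3, Lrp5 and Lrp6, with scores of 530.36, 378.15 and 377.15. The WAT lists of H3K9me3 were also the shorter ones, and with the 29190 strongest peaks of each HFD list 2 members were WAT-only.

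The marks were compared within each tissue and diet. In SCD BAT, 0 members had H3K9me2 without H3K9me3, beside 2.99% of all genes, and 4 had H3K9me3 alone, beside 12.0%. The 4 were Wnt9b (250.5), Wnt3 (139.58), Wnt11 (128.65) and Dkk1 (50.87). In HFD BAT, Dkk1 alone had H3K9me2 without H3K9me3, beside 4.75% of all genes. H3K9me3 alone was found at the ligands Wnt5b (395.85), Wnt4 (291.51), Wnt10b (193.22) and Wnt9b (159.47), beside 18.1% of all genes. At the 31 members of SCD BAT and the 33 of HFD BAT with both marks, the peaks of the marks overlapped in every case.

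In SCD WAT, 25 members had H3K9me2 alone, beside 36.5% of all genes, and Wnt8b had H3K9me3 alone, beside 1.12%. The peaks of both marks overlapped at 3 of the 5 members that had both. In HFD WAT, 7 members had H3K9me2 alone, beside 13.2% of all genes, among them Lrp5 (103.38) and Wnt16 (69.76). Wnt3 (152.6) and Sfrp4 (67.71) had H3K9me3 alone, beside 9.82% of all genes, and with a score of 80 or more the counts turned to 5 H3K9me2-only and 6 H3K9me3-only. In SCD WAT the H3K9me2-only members fell to 15 with the 8350 strongest peaks of each list, and in BAT the H3K9me3-only members rose to 7 in SCD and 12 in HFD with a score of 80 or more.

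Wnt promoters were richer in CG than promoters at large. The ratio of observed to expected CG in the 1 kb around the outermost start had a median of 0.76 over the members and of 0.55 over all genes, with 0.82 for receptors, 0.74 for ligands and 0.58 for antagonists. It was lowest at Wnt8a (0.25), Wnt8b (0.33) and Wnt16 (0.35), and highest at Lrp6 (1.05) and Sfrp1 (1.04). The 9 members below 0.6 had a peak in a median of 3 lists, and the other 31 in a median of 7. The 9 were Wnt1, Wnt8a, Wnt8b, Wnt10a, Wnt16, Dkk1, Dkk2, Dkk3 and Sfrp4. Spearman's rho between the ratio and the number of lists was 0.26 over the 40 members, which share the same 8 libraries.

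The members were also read against genes of like CG content. Of the 31 members at or above 0.6, 28 had a peak in SCD BAT H3K9me2, where 68.4% of all genes of that class did. In HFD BAT H3K9me3 it was 31 of 31, where 90.5% of the class did. In HFD WAT H3K9me3 it was 22 of 31, where 53.0% did, and in SCD WAT H3K9me3 5 of 31, where 7.69% did. Of the 9 members below 0.6, 7 had a peak in HFD BAT H3K9me2, where 31.8% of such genes did, and 3 in SCD BAT H3K9me2, where 22.2% did.

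The highest peaks themselves sat on CG-rich sequence. In HFD BAT H3K9me3, 36 of 37 held more CG per 100 bp than either adjoining 1 kb, with a median of 8.19, and 95.6% of the highest peaks of all genes did so. In HFD BAT H3K9me2 it was 28 of 34, with a median of 6.52, beside 84.3% over all genes. In SCD WAT H3K9me3 this held for 2 of 6 members, Fzd8 and Sfrp1, and for 77.8% of all genes. The peaks of Wnt3a, Wnt5a, Wnt8b and Fzd2 in that list were the exceptions.

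Some of the ligands lie next to each other in the genome. Starts of Wnt1 and Wnt10b are 11707 bp apart on chromosome 15, those of Wnt3a and Wnt9a 16176 bp on chromosome 11, those of Wnt6 and Wnt10a 19624 bp on chromosome 1, and those of Wnt3 and Wnt9b 24329 bp on chromosome 11. These distances set their promoter windows apart, and neighbours could differ in their calls. Wnt9a had no promoter peak of 50 or more in WAT, whereas Wnt3a had one in 3 of the 4 WAT lists.

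A further 46 genes of the pathway, chiefly those acting inside the cell, in R-spondin signaling or in ligand secretion, were read in the same way. They had promoter peaks at 36 genes in SCD and 26 in HFD for H3K9me2 in BAT, whereas the 40 members had 31 and 34. SCD-only peaks were found at 15 of the 46 and HFD-only peaks at 5, beside 11.5 and 13.8% of all genes. The SCD-only genes were led by Znrf3 (319.03), a ubiquitin ligase that removes frizzled receptors, and Kremen1 (201.59), a Dickkopf receptor. Then came Bcl9 (171.01), Tcf7l1 (148.94), Dvl2 (128.05), Tcf7l2 (117.72), Ryk (115.98), Rspo3 (113.19) and Bcl9l (90.27). Lower scores were those of Gsk3a (89.87), Gsk3b (88.65), Lgr6 (85.44) and Apc (76.73). Axin1 (53.99) and Ctnnb1 (50.92), which encodes beta-catenin, were near the lowest score counted. The HFD-only genes were led by Rnf43 (114.57), a paralog of Znrf3, and Csnk1e (109.35), a casein kinase. Other lowest scores, windows and numbers of peaks were not tried on these 46 genes. For the 40 members, the direction in this pair turned with a score of 80 and with equal numbers of peaks.

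For H3K9me3 in BAT, 0 of the 46 were SCD-only and 3 HFD-only, beside 2.16 and 8.83% of all genes, with Rnf43 (177.12) and Porcn (60.58), the enzyme that lipidates Wnt proteins, ahead. For H3K9me2 in WAT, 6 were SCD-only and 2 HFD-only, beside 10.2 and 7.16% of all genes, led by Lgr6 (178.76), an R-spondin receptor, and Tcf7l2 (155.03), a transcription factor of the pathway. For H3K9me3 in WAT, 1 was SCD-only and 27 HFD-only, led by Rspo4 (167.15), an R-spondin, and Ror2 (151.13), a receptor for Wnt5a. The last count again stands beside 30.6% of all genes.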

How the data were processed

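Per the methods and the submitters' processing notes, the authors used FastQC for quality, Trim Galore for adaptors, Bowtie2 2.4.2 for alignment to mm9 and, after discarding multi-mapping reads, MACS2 for peaks. The deposited files are 8 peak lists with a position and a score by the authors, whose unit is not stated. How the 4 inputs entered peak calling is not given in the sources used here, and depth is unknown. Groups came from the library labels.

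Genes and 70064 start sites came from GENCODE vM1 on NCBIM37, whose chromosomes no peak overran. Overlap of 1 bp with a 3 kb window on either side of a start made a call, and 0 calls differed from bedtools 2.31.1. Python 3.11.15 and matplotlib 3.10.9 were used. On simulated peaks planted at promoters, over 22380 genes, 2000 of 2000 were recovered. Member windows that overlap those of other genes (Fzd3, Fzd4 and Sfrp4) were kept.

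The 40 members, the 46 further genes, the markers and the alternatives were chosen with earlier results of these data known. Members were named by role in fat or the pathway, by a peak in all or no lists, by score among calls in 1 diet (up to 4 per pair and direction) and by calls in 1 diet in several pairs. Other members were named after their values were seen, as were the sequences shown, the exon comparison and the CG content of peaks. Alternatives were no lowest score, a score of 80, equal numbers of peaks, a window of 1 kb, and 1 start per gene.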

Additional observations from a re-analysis of the deposited data

Results flagged for a closer look

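Wnt3 and Wnt4 were called in opposite diets in the tissues for H3K9me2, each with 1 library per group, and the difference was not tested. Wnt3 had a promoter peak of 61.7 in HFD alone in BAT and of 88.36 in SCD alone in WAT. Wnt4 had a peak of 253.63 in SCD alone in BAT and of 73.97 in HFD alone in WAT, where SCD had a peak of 45.18 below the lowest score counted. For H3K9me3 in BAT both genes had a peak in both diets.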

How the results depend on the processing

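Counts kept within 1.5 times of the value given under 1 start per gene for all 32 results, and with windows of 1 kb for 29, the exceptions being in SCD WAT H3K9me3 (1 SCD-only member, 0 WAT-only and 0 H3K9me3-only). With no lowest score, SCD WAT H3K9me3 had 19 members. This setting added peaks to both lists of SCD WAT alone. Counts set against HFD or BAT lists then used unlike lowest scores and could shift only 1 way. In WAT, SCD-only and HFD-only members then numbered 5 and 2 for H3K9me2, and 4 and 11 for H3K9me3, the direction turning in the former. In SCD, BAT-only members numbered 1 for H3K9me2, which also turned, and 19 for H3K9me3, WAT-only members 3 for H3K9me3, and H3K9me3-only members in WAT 2. With a score of 80 or more, HFD WAT H3K9me2 had 20 members and SCD WAT H3K9me3 had 3, and SCD-only members numbered 6 in BAT H3K9me2, 8 in WAT H3K9me2 and 1 in WAT H3K9me3. H3K9me3-only members were then 7 in SCD BAT, 12 in HFD BAT and 6 in HFD WAT. At this score the direction turned for the diets in BAT H3K9me2 and WAT H3K9me2 and for the marks in HFD WAT, and was level for the tissues in SCD H3K9me2.

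With the 8350 strongest peaks of each list, the members numbered 19 and 13 in SCD and HFD BAT H3K9me2, 24 in HFD BAT H3K9me3, 18 and 19 in SCD and HFD WAT H3K9me2, and 16 in HFD WAT H3K9me3. With equal numbers of peaks in each pair, SCD-only and HFD-only members were 5 and 3 in BAT H3K9me2 and 2 and 0 in BAT H3K9me3, so that the direction with more members turned in both, and 12 were HFD-only in WAT H3K9me3. BAT-only and WAT-only members were 4 and 10 for HFD H3K9me2, which also turned. WAT-only members were 2 in SCD and 2 in HFD for H3K9me3. In HFD BAT 2 were H3K9me2-only, and in SCD WAT 15 were H3K9me2-only and 3 H3K9me3-only. The cause was not tested. With SCD WAT H3K9me3 left out, a choice made after seeing the data, 19 members rather than 4 had a peak in every list.

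Of the 44 calls of a single gene in 1 diet, 28 were kept with equal numbers of peaks and 26 with a score of 80. With no lowest score 31 were kept, with 1 kb 42 and with 1 start 43. A turn to the other diet was not possible, since each alternative either only removed peaks or only added them. No paired analysis was possible because there was 1 library per group. Depth limits every absent peak.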
